A study of Homo sapiens with 6 samples.

Results

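The tumour necrosis factor (TNF) superfamily ligands and their receptors were chosen by name. Every protein-coding gene whose symbol begins with TNFSF or TNFRSF and a digit was taken, with TNF, LTA, LTB, LTBR, CD27, CD40, CD40LG, CD70, FASLG, NGFR and EDAR. This gave 44 of the 58381 gene identifiers in the counts table, 18 ligands and 26 receptors. MOLM-13, an established human acute myeloid leukaemia line, was treated for 20 h with 5 µM DB2115, a compound known here by its code name, or with vehicle, 0.001% DMSO. Both groups were kept in the same medium (RPMI with 10% serum), and the study is titled as a repositioning of the transcription factor PU.1 by drugs. The libraries come from 1 line at 1 dose and 1 time, with no untreated cells. The labels list 3 libraries per group, of which 2 per group (columns A and B) were compared here because the third column was close to their sum, and nothing states that A and B were separate cultures, so p-values reflect only how far these libraries differ, which may be technical spread.

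Ligands of this superfamily are mostly membrane proteins that can be cut from the surface, and each binds 1 or a few receptors with cysteine-rich outer domains. Receptors with a death domain can recruit FADD or TRADD and lead to caspases or to NF-kB, others bind TRAF proteins and lead to NF-kB and JNK kinases, and decoy receptors bind ligand without a full signalling tail. Monocytes and macrophages are known sources of TNF and of TNFSF13B, the B cell survival factor BAFF.

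Most members with measurable RNA in vehicle-treated cells were higher after DB2115. Of the 44 members, 29 passed the filter on low counts (about 0.251 CPM, counts scaled to library size, in at least 2 libraries), 15 did not, and 6 of those 15 had no count in any library. The filter was reached in both vehicle libraries by 20 members, and 17 of these 20 (85.0%) rose, 1 fell and 2 did not pass the test at an adjusted p of 0.05 (edgeR's quasi-likelihood test, Benjamini-Hochberg adjustment over 17219 genes). Among the 15077 genes that reached the filter in both vehicle libraries, 29% rose and 35.8% fell. A rise of at least 2-fold was called for 10 of the 20, against 11.6% of those genes. The median log2 fold change of the 20 was 0.97, and that of the 15077 genes was -0.08. The other 9 tested members passed the filter through the DB2115 libraries alone and so had to be higher there. Of these, 7 were called. Among all tested genes that did not reach the filter in both vehicle libraries, 59.2% rose. Over all 17219 genes 64.1% were called, 32.7% as a rise (17.5% by at least 2-fold) and 31.3% as a fall (9.53% by at least 2-fold). Both DB2115 values lay above both vehicle values for 27 of the 29 tested members, the 9 that had to differ included, against 42% of all tested genes, and below them for TNFSF10 and TNFRSF19, against 39.4%.

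Total counts were 36547900 to 42446253 per library, so 3 counts in 1 library correspond to 0.0725 to 0.0854 CPM. In bulk RNA, a change in the number of cells that carry a transcript and a change in transcript per cell cannot be told apart. The defining myeloid gene list had a summed level of 915 to 939 CPM in vehicle and 710 to 764 CPM in DB2115, with 3 of its 8 genes higher, 3 lower, 1 not called and 1, CD34, below the filter. Of 7 T cell markers 3 rose (CD4, TRAC and CD3E), CD2 had no count, CD3D reached at most 0.171 CPM, and the list summed to 220 to 224 CPM in vehicle and 316 to 332 CPM in DB2115, nearly all of it CD4, a gene that monocytes also express. Of 6 B cell markers 2 rose and 1 fell, and their sum went from 50.3 to 51.8 CPM down to 23.1 to 25.5 CPM. Of 6 epithelial, stromal and endothelial markers 4 rose, 1 was not called and 1, EPCAM, was below the filter. Their sum was 77.0 to 87.1 CPM in vehicle and 270 to 279 CPM in DB2115. Most of the vehicle sum was PECAM1, at 74.5 and 70.8 CPM. NK cell markers summed to 149 to 158 CPM in vehicle and 68.5 to 73.4 CPM in DB2115, all but a trace of it NCAM1, which fell, with NCR1 at 0, and the 3 erythroid markers stayed below 0.05 CPM. The part of these markers in the results below was not tested.

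The sequence just before the start of TNF is shown because TNF is the family's founding ligand and rose here. GAGGAA, the core of sites bound by PU.1, occurs in it once, on the opposite strand, 120 bases before the RefSeq start, and is in capitals as TTCCTC. The window is chr6:31575315-31575564 of GRCh38.p14, plus strand, upstream of the GENCODE gene model.
TNF: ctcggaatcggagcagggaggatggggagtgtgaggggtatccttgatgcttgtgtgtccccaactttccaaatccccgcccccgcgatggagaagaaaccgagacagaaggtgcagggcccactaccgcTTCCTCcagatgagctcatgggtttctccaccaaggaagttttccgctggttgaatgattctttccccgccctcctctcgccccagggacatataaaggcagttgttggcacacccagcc

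LTA, the neighbouring gene, holds the same letters on the same strand 37 bases before its start. The LTA stretch is chr6:31572242-31572267, plus strand, exonic in some transcripts. The TNF stretch, chr6:31575435-31575460, is repeated beside it for comparison.
LTA: ccactgccgcTTCCTCtataaaggga
TNF: ccactaccgcTTCCTCcagatgagct
The capitals and the 10 bases on their left, 16 bases in all, were identical at 15 positions. GAGGAA was searched on both strands in the 250 bases before each RefSeq start, and 27 of the 44 members had such a window. It occurred in 7 of the 27, and in 6 of the 15 that rose, against 27.3% of all 27305 genes with a window.

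The consensus site of NF-kB, the kappa B consensus, was found in 6 of the 27 members with a window: LTA, LTB, TNFRSF14, TNFSF13, TNFSF14 and TNFRSF9. The first 5 of these rose and TNFRSF9 was below the filter. The share over all 27305 genes was 6.28%. The 5 matches before genes that rose are shown with the match in capitals, each read on its gene's strand.
LTA: ctaagccctgGGGGCTTCCCcgggccccag
LTB: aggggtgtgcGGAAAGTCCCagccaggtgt
TNFRSF14: tggactttggGGGGCTCCCCcttctacagg
TNFSF13: tcctcctgcgGGGAAATCCCttcctggctg
TNFSF14: gggaaagctgGGGGCTCCCCactgcacttg
They lie at chr6:31572176-31572205 (plus strand, exonic in some transcripts), chr6:31582492-31582521 (minus, exonic in some transcripts), chr1:2556277-2556306 (plus, intronic), chr17:7558131-7558160 (plus, upstream of the gene model) and chr19:6670332-6670361 (minus, exonic in some transcripts) of GRCh38.p14. TNF itself had no match to this consensus in its window. Such a match describes letters only. It does not show that a factor was bound there, and no binding data were used.

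TNF, the cytokine that activates TNFRSF1A and TNFRSF1B, was among the ligands that rose most. TNF (ENSG00000232810.3, chr6:31575567-31578336) stood at 6.97 and 7.14 CPM in the vehicle libraries and at 44.4 and 35.9 CPM in the DB2115 libraries. Both DB2115 values were far above both vehicle values. The mean went from 7.06 ± 0.12 to 40.2 ± 6.0 CPM (SD, n = 2), a log2 fold change of 2.51 (SE 0.11, edgeR adjusted p = 9.44e-10), or 5.69-fold.

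LTB, which joins LTA in a membrane complex that binds the lymphotoxin beta receptor, rose with it. LTB (ENSG00000227507.2, chr6:31580525-31582522) had 2.05 and 1.501 CPM in vehicle and 43.9 and 32.9 CPM in DB2115. The groups were widely apart, and DB2115 library A was the higher of its pair for both LTB and TNF. The rise was 21.8-fold, a log2 fold change of 4.45 (SE 0.17, edgeR adjusted p = 2.70e-10). LTA (ENSG00000226979.8), the soluble partner, was almost silent in vehicle, with 2 counts over both libraries, and had 63 counts in DB2115. LTA stood at 0.0285 and 0.0242 CPM in vehicle and 0.758 and 0.773 CPM in DB2115. Its count ratio scaled by library size was 29.2, with an exact 95% counting interval of 7.77 to 247 (edgeR adjusted p = 5.54e-05), and such intervals cover counting error only. LTA, TNF and LTB lie side by side within 10.469 kb of chromosome 6, and all 3 rose, against 32.7% of all tested genes. LTA passed the filter through the DB2115 libraries alone and so had to be higher there.

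TNFSF14 (LIGHT), a ligand of TNFRSF14 and LTBR, went from 10.4 and 8.52 CPM to 48.5 and 46.0 CPM. The groups did not overlap, and the log2 fold change was 2.33 (SE 0.10, edgeR adjusted p = 5.40e-10). TNFSF9 (4-1BB ligand), a costimulator of T cells, and CD70, the ligand of CD27, lie within the same 139.59 kb of chromosome 19 and rose less. TNFSF9 had 30.8 and 26.5 CPM in vehicle and 49.6 and 49.2 CPM in DB2115 (log2 fold change 0.79, SE 0.08, edgeR adjusted p = 2.18e-06). CD70 had 74.2 and 68.7 CPM in vehicle and 126 and 129 CPM in DB2115 (log2 fold change 0.84, SE 0.06, edgeR adjusted p = 1.36e-07). Thus all 3 ligand genes of that stretch rose, by different amounts, against 29% of all genes at the filter in vehicle.

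TNFSF13B (BAFF) and TNFSF13 (APRIL), B cell survival factors, both rose. The level of TNFSF13B was 99.7 and 98.1 CPM in vehicle and 239 and 240 CPM in DB2115. The replicates were nearly equal within each group, and the change was 2.42-fold (log2 fold change 1.28, SE 0.06, edgeR adjusted p = 9.73e-10). TNFSF13 had 8.37 and 7.19 CPM in vehicle and 23.4 and 19.7 CPM in DB2115, a log2 fold change of 1.48 (SE 0.12, edgeR adjusted p = 2.01e-07). More than 1 gene model covers 55.5% of the TNFSF13 exon length, because the read-through gene TNFSF12-TNFSF13 spans it. That gene itself was given only 6 counts in all 4 libraries. Other genes cover 100% of its exon length, and how shared reads were counted is not known. Those 6 counts therefore do not measure its level.

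The remaining ligands were low or did not pass the test. TNFSF10 (TRAIL), the ligand of the TNFRSF10 death receptors, had 4.92 and 5.62 CPM in vehicle and 4.45 and 4.23 CPM in DB2115 (log2 fold change -0.28, SE 0.16, edgeR adjusted p = 0.142). TNFSF4 (OX40 ligand) passed the test narrowly, with 7 counts in vehicle and 25 in DB2115 and an edgeR adjusted p of 0.0379. It lost the call without any 1 of the 4 libraries (adjusted p 0.133 to 0.204). TNFSF12 (TWEAK) had 0.228 and 0.0484 CPM in vehicle and 0.342 and 0.362 CPM in DB2115, and did not pass (edgeR adjusted p = 0.0918). Its log2 fold change of 1.39 became 2.78 without vehicle library A and 0.60 without vehicle library B. FASLG, TNFSF8 and TNFSF11 had no count, which allows up to 3 counts over each group, and CD40LG, TNFSF15, TNFSF18 and TNFSF12-TNFSF13 had at most 3 counts in any library.

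**Figure D1:**
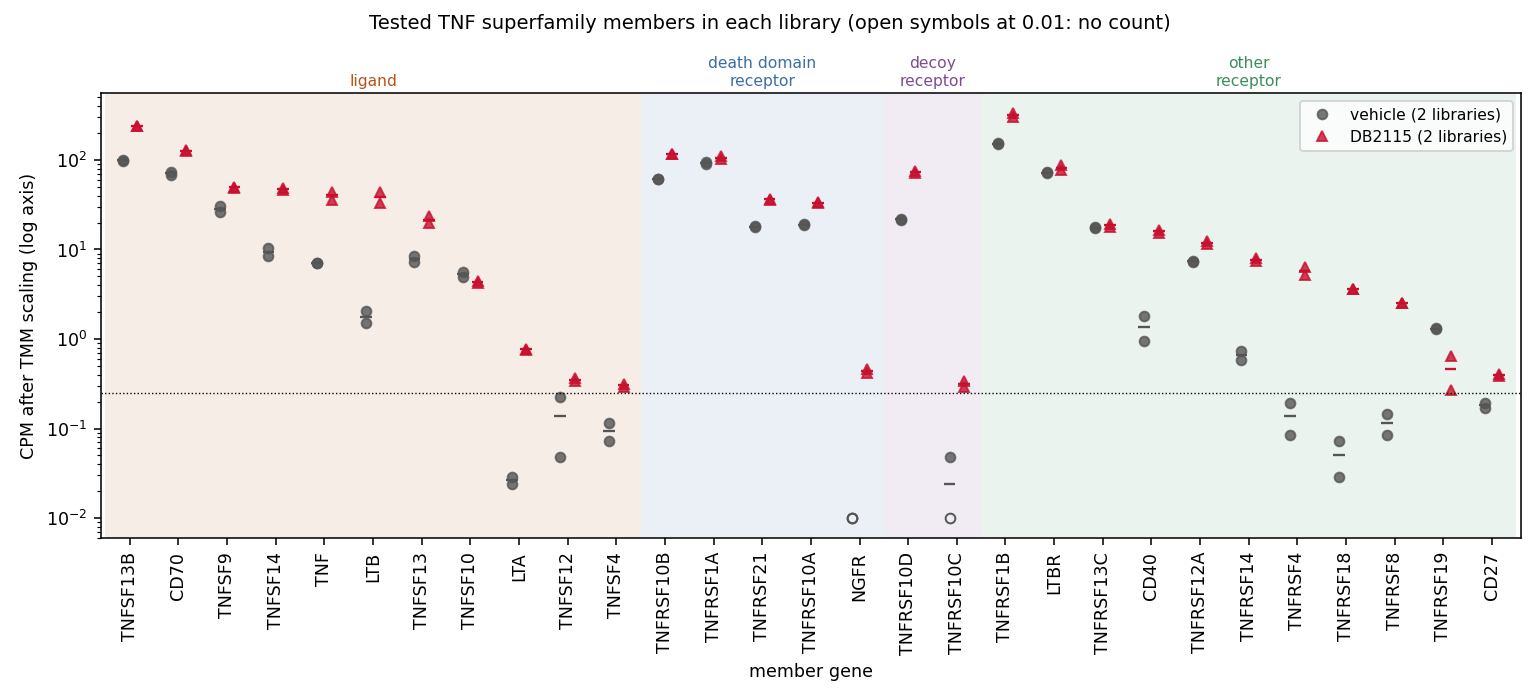
CPM of the 29 tested members (vertical axis, log scale) by gene and role, with 1 point per library (2 vehicle, 2 DB2115), a bar at each group mean above 0 and the dotted line at the filter level. Values of 0 are drawn as open symbols near the bottom edge. LTB, TNF, CD40 and TNFSF14 show wide gaps between groups, while TNFRSF13C and TNFSF10 lie close together.

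Among the death domain receptors, all 4 that reached the filter in vehicle rose, against 29% of all genes at that filter. Each rose by about 2-fold or less. TNFRSF10B (TRAIL-R2, DR5) had 60.8 and 61.0 CPM in vehicle and 115 and 117 CPM in DB2115 (log2 fold change 0.93, SE 0.06, edgeR adjusted p = 2.82e-08). TNFRSF10A (TRAIL-R1, DR4) had 19.2 and 18.8 CPM in vehicle and 34.0 and 32.8 CPM in DB2115 (log2 fold change 0.81, SE 0.08, edgeR adjusted p = 1.19e-06). Both TRAIL receptors that carry a death domain were thus higher in each DB2115 library than in either vehicle library. TNFRSF21 (DR6) went from 18.2 and 17.8 CPM to 36.0 and 37.0 CPM, a 2.03-fold rise (log2 fold change 1.02, SE 0.08, edgeR adjusted p = 1.28e-07).

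TNFRSF1A, the widely expressed TNF receptor with a death domain, changed little. It stood at 94.5 and 89.0 CPM in vehicle and 111 and 102 CPM in DB2115. Its log2 fold change of 0.21 (SE 0.07, edgeR adjusted p = 0.0128) was no longer called without vehicle library B (adjusted p = 0.209) or without DB2115 library A (adjusted p = 0.130). NGFR, the low-affinity neurotrophin receptor, had 0 counts in vehicle and 36 in DB2115. By the lower limit of its exact 95% counting interval it was at least 8.60-fold higher (edgeR adjusted p = 0.000273), and 3 counts over the vehicle group would give 11.1-fold. Annotated genes on the opposite strand cover 27.1% of its exon length. The summed epithelial, stromal and endothelial markers given above were also higher in DB2115. Their largest DB2115 means were those of PECAM1 (168 CPM) and KRT8 (64.7 CPM). PECAM1 already had 74.5 and 70.8 CPM in vehicle. The stromal genes COL1A1 and COL3A1 had 38.8 and 3.05 CPM in DB2115, and COL3A1 was not called (edgeR adjusted p = 0.0530). CDH5 had 0 counts in vehicle and 24 in DB2115. EPCAM went the other way, with 14 counts in vehicle and 4 in DB2115, and was not tested. The part of these markers in the NGFR rise was not tested. EDAR, the ectodysplasin receptor, had 1 count in each group, and TNFRSF25 (DR3) had none.

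The decoy receptor TNFRSF10D (TRAIL-R4), which binds TNFSF10 without a full death domain, also rose. Its level was 21.5 and 22.0 CPM in vehicle and 71.2 and 74.8 CPM in DB2115. The groups were far apart, and the change was 3.36-fold (log2 fold change 1.75, SE 0.07, edgeR adjusted p = 3.46e-10). To compare genes, CPM was divided by exon length in kilobases. The ratio of TNFRSF10D to the sum of TNFRSF10A and TNFRSF10B on that scale was 0.332 and 0.342 in vehicle and 0.594 and 0.627 in DB2115. The groups did not overlap, and the exact permutation test (two-sided) gave p = 0.333, the smallest that 2 libraries against 2 allow. TNFRSF10C (TRAIL-R3), a decoy anchored by a lipid, had 2 counts in vehicle and 26 in DB2115, a scaled ratio of 12.1 with an exact counting interval of 3.02 to 105 (edgeR adjusted p = 0.00457). Its call was lost without vehicle library A, and its fitted log2 fold change of 3.45 moved to 2.62 there and to 6.64 without vehicle library B. Without DB2115 library B, TNFRSF10C was not tested. Other genes cover 39.3% of the TNFRSF10C exon length on the same strand. The 4 TNFRSF10 genes lie within 204.994 kb of chromosome 8, and all 4 rose, against 32.7% of all tested genes. TNFRSF10C passed the filter through the DB2115 libraries alone. Neighbouring members elsewhere did not all rise. CD27, near TNFRSF1A and LTBR on chromosome 12, and TNFSF12, near TNFSF13 on chromosome 17, were not called. TNFSF18, near TNFSF4 on chromosome 1, and TNFSF15 and TNFSF8 on chromosome 9 were not tested. TNFRSF11B (osteoprotegerin) had 6 counts in vehicle and 7 in DB2115, and TNFRSF6B (decoy receptor DcR3), whose exons all overlap other genes, had none.

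**Figure D2:**
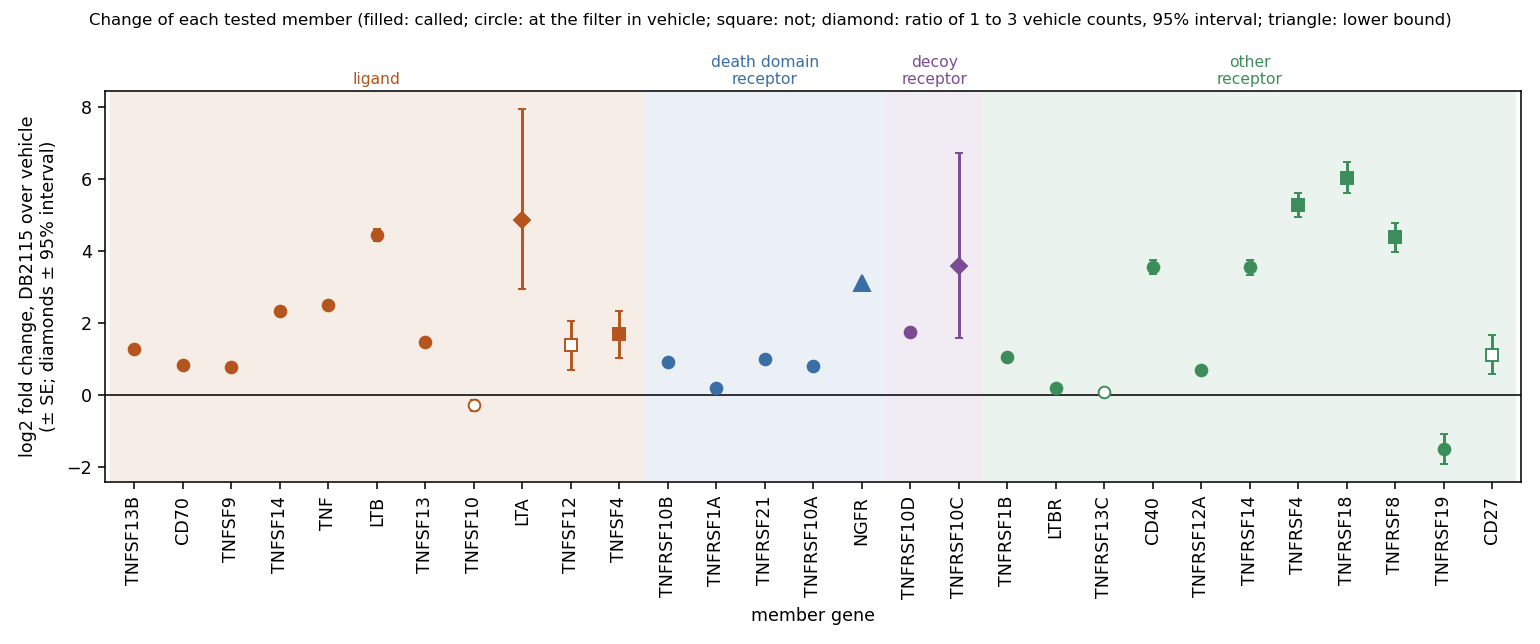
Log2 fold change of each tested member, DB2115 over vehicle (vertical axis), by role, with SE bars. Filled symbols passed the test, squares were below the filter in vehicle, diamonds are count ratios with 95% counting intervals for LTA and TNFRSF10C, and the triangle is the lower 95% counting limit for NGFR. TNFRSF19 is the only filled symbol below 0.

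The other receptors held several large rises and the only fall. CD40, the receptor by which T cells license antigen-presenting cells, went from 1.79 and 0.944 CPM to 15.2 and 16.7 CPM. The groups were well apart although the vehicle libraries differed from each other. The rise was 11.8-fold (log2 fold change 3.57, SE 0.20, edgeR adjusted p = 7.44e-09), while its ligand CD40LG had at most 1 count per library. TNFRSF14 (HVEM), the receptor of TNFSF14, had 0.740 and 0.581 CPM in vehicle and 8.02 and 7.42 CPM in DB2115 (log2 fold change 3.55, SE 0.21, edgeR adjusted p = 1.32e-08). The antisense gene TNFRSF14-AS1 overlaps 13.4% of its exon length and had 1 count in vehicle and 61 and 44 counts in the DB2115 libraries. No source used here gives the strandedness of the counting, and reads from such a pair cannot be told apart.

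TNFRSF18 (GITR), TNFRSF4 (OX40) and TNFRSF8 (CD30), costimulatory receptors best known on activated lymphocytes, were below the filter in vehicle and called in DB2115. TNFRSF18 had 4 counts in vehicle and 300 in DB2115, or 0.0285 and 0.0727 CPM against 3.64 and 3.65 CPM, a scaled ratio of 69.6 (exact 95% counting interval 26.9 to 257, edgeR adjusted p = 5.64e-08). TNFRSF4 had 11 counts in vehicle and 472 in DB2115, or 0.0854 and 0.194 CPM against 6.31 and 5.17 CPM, a ratio of 39.8 (interval 22.1 to 80.3, edgeR adjusted p = 2.17e-08). Both genes lie within 10.631 kb of chromosome 1, and neither has exons that overlap another gene. Without vehicle library B the fitted log2 fold changes moved from 6.04 to 6.83 for TNFRSF18 and from 5.29 to 5.99 for TNFRSF4. TNFRSF8 had 9 counts in vehicle and 207 in DB2115, a ratio of 21.4 (interval 11.03 to 47.4, edgeR adjusted p = 8.16e-07). Their ligands had few reads, with TNFSF18 at 2 counts, TNFSF8 at 0 and TNFSF4 at 25 counts in DB2115. Of the 7 T cell markers, CD3D, CD3G, CD2 and CD8A were below the filter and not tested, CD2 with no count. The other 3 rose. CD3E had 1 count in vehicle and stood at 1.12 and 0.242 CPM in DB2115. TRAC went from 4.13 and 4.33 to 22.1 and 19.3 CPM, and CD4 from 216 and 219 to 308 and 297 CPM. The part of these markers in the receptor rises was not tested.

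TNFRSF1B, the TNF receptor without a death domain, rose about 2-fold. It had 155 and 150 CPM in vehicle and 302 and 333 CPM in DB2115, a log2 fold change of 1.06 (SE 0.06, edgeR adjusted p = 1.39e-08). Per exon length, its ratio to TNFRSF1A went from 1.74 and 1.79 to 2.91 and 3.46, with no overlap (exact permutation p = 0.333, two-sided, the smallest possible). TNFRSF12A (Fn14), the receptor of TNFSF12, went from 7.49 and 7.24 CPM to 12.4 and 11.4 CPM (log2 fold change 0.69, edgeR adjusted p = 0.000157).

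LTBR, the receptor of the lymphotoxin complex and of TNFSF14, changed little. It had 73.1 and 71.0 CPM in vehicle and 86.8 and 77.7 CPM in DB2115 (log2 fold change 0.19, SE 0.07, edgeR adjusted p = 0.0296). Its call was lost without vehicle library A (adjusted p = 0.105), vehicle library B (0.268) or DB2115 library A (0.349). The ratio of LTB to LTBR per exon length was 0.115 and 0.0865 in vehicle and 2.07 and 1.73 in DB2115. On that scale LTB was below LTBR in both vehicle libraries and above it in both DB2115 libraries (exact permutation p = 0.333, two-sided, the smallest possible). The order depends on the length used, the union of exons, which was 6280 bases for LTBR and 1535 for LTB. In CPM, LTB stayed below LTBR in DB2115 too, at 43.9 and 32.9 CPM against 86.8 and 77.7 CPM. TNFRSF13C (BAFF receptor), which binds TNFSF13B, did not pass the test, with 17.3 and 17.7 CPM in vehicle and 19.4 and 17.9 CPM in DB2115 (log2 fold change 0.09, SE 0.09, edgeR adjusted p = 0.381). The other receptors of TNFSF13B were near silent, with 1 count for TNFRSF13B and none for TNFRSF17. CD27, the receptor of CD70, had 14 counts in vehicle and 33 in DB2115 and did not pass (edgeR adjusted p = 0.0888), and CD27-AS1 and TAPBPL overlap 39.1% of its exon length.

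TNFRSF19 (TROY), an orphan-type receptor known mainly from neural and epithelial tissue, was the member that fell. It had 1.28 and 1.33 CPM in vehicle and 0.269 and 0.652 CPM in DB2115. The groups did not overlap, but the DB2115 libraries differed widely from each other. The log2 fold change was -1.497 (SE 0.43, edgeR adjusted p = 0.00794), a level 2.82-fold lower. It was -1.02 without DB2115 library A (adjusted p = 0.0671), -2.28 without DB2115 library B (adjusted p = 0.000352) and not called without vehicle library B (adjusted p = 0.0978). TNFRSF9 (4-1BB), the receptor of TNFSF9, had 10 counts in vehicle and 16 in DB2115, and TNFRSF11A (RANK) had 1 and 18. Both were below the filter and not tested.

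Levels of different members were ordered per exon length. In vehicle, CD70 (46.6 CPM per kb), TNFRSF1B (40.4) and TNFSF13B (32.3) led, and no neighbours among the first 20 members overlapped between their 2 libraries. In DB2115, TNFRSF1B (84.3) and CD70 (83.2) overlapped at the top and TNFSF13B (78.3) came next. LTB moved from place 17 (1.16 CPM per kb) to place 6 (25.0), beside TNFRSF1A (26.5) and TNF (24.0), and these neighbours overlapped. TNF moved from place 12 to place 7. The ratio of LTB to TNF per exon length was 0.321 and 0.230 in vehicle and 1.08 and 1.00 in DB2115. The ratio of TNF to the sum of its receptors went from 0.0643 and 0.0688 to 0.246 and 0.189. For both ratios the groups did not overlap (exact permutation p = 0.333, two-sided, the smallest possible). The ratio of TNFSF13B to TNFSF13 was 8.86 and 10.15 in vehicle and 7.60 and 9.045 in DB2115. There the groups overlapped (exact permutation p = 0.667, two-sided). The TNFSF13 length used includes the exons that it shares with TNFSF12-TNFSF13. A level of at least 10 CPM in both libraries was reached by 11 members in vehicle and 17 in DB2115.

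**Figure D3:**
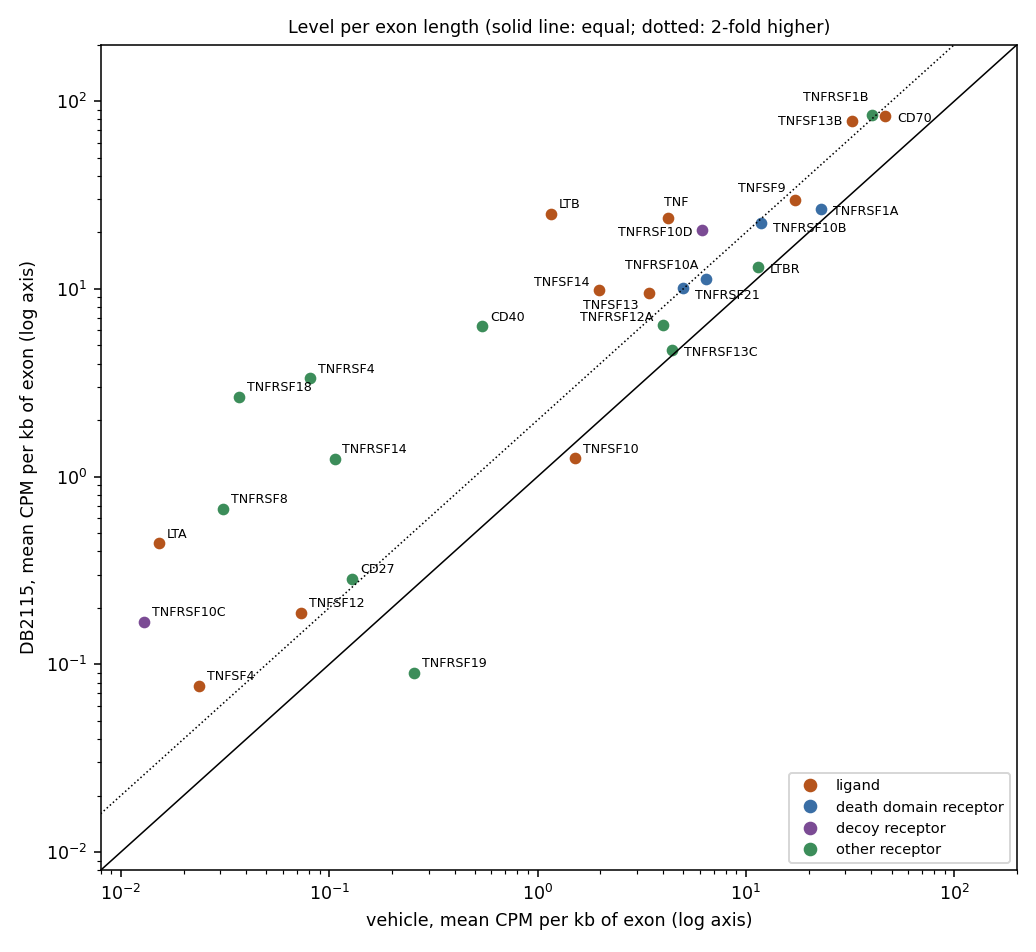
Mean level per exon length (CPM per kb, both axes on log scales) in vehicle (horizontal) and DB2115 (vertical), 1 point per tested member with counts in vehicle. The solid line marks equal levels and the dotted line a 2-fold rise. LTB lies far above the lines at 1.16 and 25.0 CPM per kb, and TNFRSF19 lies below the solid line.

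The genes that act around these ligands and receptors changed in mixed directions. Of all genes at the filter in vehicle 29% rose and 35.8% fell. Of 17 tested adaptors and ubiquitin enzymes 10 rose, 4 fell and 3 were not called, with a median log2 fold change of 0.22. Without vehicle library A, without vehicle library B, or with DESeq2, 6 rose. CYLD, a deubiquitinase that restrains NF-kB signalling, went from 22.5 and 23.0 to 95.04 and 95.08 CPM (log2 fold change 2.06, edgeR adjusted p = 5.84e-11). TRAF1 rose by 2.54 and RIPK1, the kinase that sits on TNFRSF1A, by 0.68 on the log2 scale (edgeR adjusted p = 1.02e-05 and 5.59e-06). TRAF2, an adaptor of both TNF receptors, fell by 0.86, FADD, the adaptor of the death receptors, fell by 0.42, and TNFAIP3 (A20), which limits NF-kB signalling, fell by 0.90 on the log2 scale (edgeR adjusted p = 4.44e-07, 0.000289 and 2.19e-07). CYLD and TNFAIP3 thus moved in opposite directions.

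Of 13 kinases that lead to NF-kB and JNK 5 rose, 2 fell and 6 were not called, with a median of -0.01, and the share that rose was near the 29% of all such genes. The number that rose was 3 without vehicle library A, 2 without vehicle library B, 3 without DB2115 library A and 3 with DESeq2, and the number that fell was 1 without vehicle library A or without B. MAP3K5 (ASK1) rose by 1.07 (edgeR adjusted p = 2.87e-08), TAB2 by 0.30 (0.00111) and MAP3K7 (TAK1) by 0.23 (0.00393) on the log2 scale. CHUK and IKBKB, the catalytic kinases of the IKK complex, fell by 0.57 and by 0.19 (edgeR adjusted p = 1.22e-05 and 0.0164). The call of IKBKB was lost without vehicle library A (adjusted p = 0.0660) or B (0.0821), and that of MAP3K7 without vehicle library B (0.100). In the death branch 7 of 10 genes rose, 1 fell and 2 were not called, with a median of 0.70, against 29% and 35.8% of all such genes that rose and fell. CFLAR, which blocks caspase-8 activation, rose by 1.15 and MLKL, which executes necroptosis, by 1.17 on the log2 scale (edgeR adjusted p = 1.25e-08 and 1.30e-08). BID, which links caspase-8 to mitochondria, fell by 0.77 (edgeR adjusted p = 2.84e-06).

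Of 8 genes that cut or mature ligands and receptors 5 rose, none fell and 3 were not called, with a median of 0.39, beside the same 29% and 35.8%. Without DB2115 library A, 1 fell. RHBDF1 (iRhom1), a partner of the TNF-cutting protease ADAM17, went from 1.31 and 1.79 to 12.2 and 12.2 CPM (log2 fold change 2.96, edgeR adjusted p = 7.27e-09). FURIN, which processes TNFSF13B and TNFSF13, rose by 1.02 (edgeR adjusted p = 1.32e-08), and SPPL2A, which cuts the membrane stub of TNF, by 0.66 (1.85e-06).

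Of 24 genes known to be induced by TNF through NF-kB, 14 reached the filter in both vehicle libraries, and 11 of these rose, 2 fell and 1 was not called, with a median of 0.91, against 29% that rose and 35.8% that fell among all such genes. A further 3 did not reach the filter in both vehicle libraries, which favours a rise among tested genes. All 3 rose, against 59.2% of all such tested genes, and 7 were not tested. TNFAIP2 went from 67.6 and 70.0 to 220 and 214 CPM (log2 fold change 1.66, edgeR adjusted p = 1.54e-10). IER3 rose by 3.42 and PTX3 by 2.08 on the log2 scale (edgeR adjusted p = 4.12e-09 and 9.03e-09). SOD2, the mitochondrial superoxide dismutase, fell by 0.77, and TNFAIP8 fell by 0.21 (edgeR adjusted p = 2.07e-07 and 0.00997). Without vehicle library A or B the call of TNFAIP8 was lost (adjusted p = 0.0551 and 0.0625), which left 1 that fell. Superfamily receptors whose symbols the name rule leaves out also moved: FAS, the death receptor of FASLG, went from 13.0 and 13.0 to 47.6 and 46.5 CPM (log2 fold change 1.86, edgeR adjusted p = 5.18e-10). RELT rose by 0.55 (edgeR adjusted p = 1.88e-05). FAS and RELT were at the filter in vehicle, where 29% of all genes rose. EDA2R had 0 counts in vehicle and 21 and 10 in the DB2115 libraries. It was at least 7.35-fold higher by the lower limit of its exact 95% counting interval (edgeR adjusted p = 0.000823). EDA2R passed the filter through the DB2115 libraries alone and so had to be higher there. EDA had 1 count in DB2115 and was not tested. Without DB2115 library A, EDA2R was not tested.

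**Figure D4:**
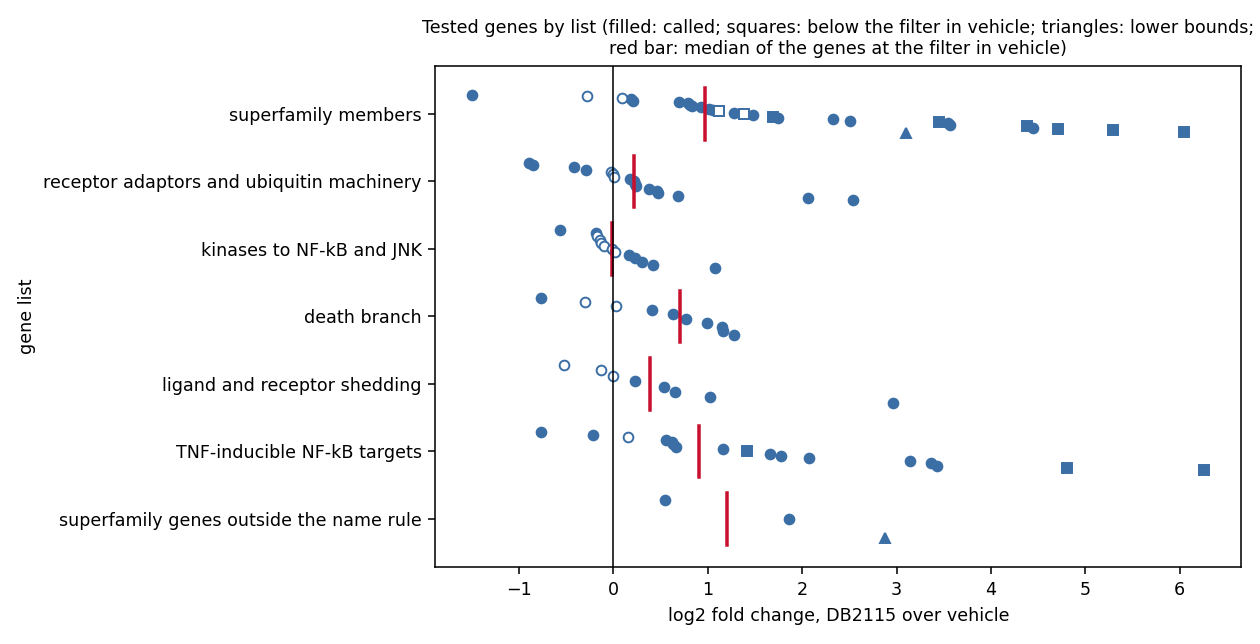
Log2 fold change (horizontal axis, DB2115 over vehicle) of the tested genes of each list (rows), 1 symbol per gene, filled where called. Squares mark genes that did not reach the filter in both vehicle libraries, and triangles mark lower 95% counting limits. The red bar is the median of genes at the filter in vehicle, 0.97 for the superfamily members and -0.01 for the kinases.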

How the data were processed

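The deposited table holds raw read counts per gene for 58381 versioned Ensembl identifiers, not normalised by the authors. Build hg38 and the tools STAR, FastQC and DESeq2 are listed in the submitters' processing notes. No source used here gives tool versions, the annotation, how reads were counted or whether strand was used. GENCODE 29 on GRCh38 gave 58261 symbols, coordinates and exon lengths (the union of exons). Promoter windows came from RefSeq (GRCh38.p14).

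The plan assumed 6 independent libraries, but the third column of each group equalled the sum of the other columns exactly in 85.6% of vehicle and 86.3% of DB2115 genes that had counts, so 2 columns were left out as pooled. The remaining columns differed beyond sampling noise (median chi-square per gene 1.48 and 1.91, against 0.455 for sampling alone). Column letters are in no sample label, and columns were assigned to groups only.

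Counts were filtered with filterByExpr (minimum count 10, total 15), scaled by TMM and tested with glmQLFit and glmQLFTest in edgeR 4.0.16 (R 4.3.3), treatment being the only term. The common biological coefficient of variation was 6.33%. CPM use TMM-scaled library sizes, and SE is the log2 fold change divided by the root of F. Ratios from few counts have exact 95% intervals, and a fold against 0 counts is given as the lower limit of that interval. No count allows up to 3 counts over the group. DESeq2 1.42.0, limma-voom (limma 3.58.1) and other scalings, filters and subsets of libraries were alternatives.

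Every member was open to naming. From each pathway list, up to 3 genes that rose and 3 that fell with the smallest adjusted p were named, and marker genes were named for their role. One gene that this choice would name is not reported here. Members and lists were chosen with earlier results of these data known.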

Additional observations from a re-analysis of the deposited data

How the results depend on the processing

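The number of members that rose was 24. Of these, 7 passed the filter through the DB2115 libraries alone and so had to be higher there. The number ranged from 16 (at least 1 CPM in 3 libraries, which left fewer genes tested) to 26 (all 6 columns, which counts pooled columns as libraries). Over all tested genes, 5634 of 17219 rose in the edgeR fit, 4473 of 12604 with the 1 CPM filter and 6975 of 17289 with all 6 columns. Of the 20 members at the filter in vehicle, 15 to 17 rose under the 13 alternatives. One member fell in the edgeR fit, 0 did with the 1 CPM filter, 2 with all 6 columns, and 0 to 1 when 1 library was left out. Pathway genes that rose numbered 44 (35 to 44 over the alternatives). Those that fell numbered 9 and ranged from 6 (upper-quartile factors, total counts only, the 1 CPM filter or either vehicle library left out) to 15 (all 6 columns). With all 6 columns 6 kinases, 2 death branch genes and 1 shedding gene fell, and with the 1 CPM filter, upper-quartile factors or total counts 1 kinase and 1 NF-kB target fell. The 1 CPM filter left 8 NF-kB targets that rose. Of 26 named pathway genes, IKBKB, TNFAIP8 and MAP3K7 lost the call under some alternatives, and 0 reversed. With a replicate block on the column letters, which leaves 1 residual degree of freedom, 23 members rose and 1 fell. Only TNFSF4 lost its call (adjusted p = 0.0728). Deviations of columns with the same letter correlated at 0.0159. With 2 columns per group this cannot settle whether the letters mark a shared culture or batch, which no label states. Of 365 recomputed member values 345 kept their direction and side of the threshold, 17 lost the call, 3 gained one (CD27, TNFSF10 and TNFSF12, with all 6 columns) and 0 reversed. The lost calls belonged to LTBR, TNFRSF1A, TNFRSF10C, TNFRSF19 and TNFSF4, and the cause was not tested. With DESeq2, 21 members rose, and the adjusted p was 0.102 for LTBR, 0.0562 for TNFRSF10C and 0.287 for TNFSF4. Without a filter on low counts that of TNFSF4 was 0.106. With 2 libraries per group, members with few counts in vehicle have folds known only within wide counting intervals. Small folds such as those of LTBR and TNFRSF1A kept or lost the call depending on which library was left out.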
